A study of Mus musculus with 8 samples.

Results

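Genes of the canonical Wnt/β-catenin pathway, 10 in number, were followed through knockdown of Sox2, Hnrnpk and Cdk9 in mouse embryonic stem cells (ESCs). They were Ctnnb1, Axin2, Sp5, Lef1, Tcf7, Tcf7l1, Dkk1, Dkk3, Nkd1 and Lgr5, each found in the count table as 1 row by its Ensembl identifier, and they make up 10 of 55335 genes counted. Dkk3, a secreted protein of the Dickkopf family, was the only one of the 9 tested to pass the test in a knockdown against control. Its level fell 3.62-fold in Sox2-KD E14 ESCs, a result that depended on single libraries. Dkk3 was also 3.47-fold lower in the libraries labelled as Hnrnpk knockdown and 2.89-fold lower in Cdk9 knockdown, without passing the test. All 3 comparisons share the same control libraries. In both Sox2-KD libraries Dkk1, a secreted Wnt antagonist, and Sp5, a transcription factor switched on by Wnt signalling, stood above both control libraries, and Nkd1, an inhibitor of Dishevelled, stood below them, but none of these 3 differences passed the test. The message of β-catenin itself, Ctnnb1, was measured at 951 ± 129 normalized counts per 1000000 (CPM) in control and 950 ± 14.5 in Sox2-KD ESCs (SD, n = 2 each).

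The cells were E14, a widely used mouse ESC line that grows without feeder cells. The 8 libraries fell into 4 groups of 2 that were sequenced: control cells carrying a scrambled short hairpin RNA (shRNA), labelled NG, and cells carrying a lentiviral shRNA against Sox2, Hnrnpk or Cdk9 (Sox2-KD, hnRNPK-KD and Cdk9-KD), all selected with puromycin. All 4 groups, the control included, were grown on gelatin in serum with leukaemia inhibitory factor (LIF), the MEK inhibitor PD0325901 and CHIR99021. CHIR99021 inhibits the kinase GSK3, which activates the Wnt pathway inside the cell, and it was present in the control libraries too. Which of the study's shRNAs a library received is not given in the sources used here. The study asked how far SOX2 and its partner hnRNPK act on the same genes, with Cdk9, the kinase of the elongation factor P-TEFb, as a further arm.

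In the canonical pathway, Wnt proteins leave the secreting cell with the help of Porcn and Wls and bind Frizzled receptors and the co-receptors Lrp5 and Lrp6. The receptor complex stops the destruction complex, built on Axin and Apc with the kinases Gsk3 and casein kinase 1, from marking β-catenin for degradation. β-catenin then enters the nucleus and joins the DNA-binding proteins of the TCF/LEF family. Tcf7l1 acts mainly as a repressor in ESCs, and β-catenin relieves that repression, while Tcf7 and Lef1 act mainly as activators. Axin2, Sp5, Nkd1, Lgr5 and Dkk1 are switched on by the pathway in many tissues, and Axin2, Nkd1 and Dkk1 in turn damp it. Dkk1 binds Lrp6 and blocks it from outside the cell. Dkk3 is a divergent member of that family whose action on Wnt signalling is less settled. In mouse ESCs, an active Wnt pathway supports self-renewal.

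TCF/LEF proteins bind DNA at a short motif, and the promoters of the 2 genes that were higher in both Sox2-KD libraries are shown because, of the genes with a promoter window here, they were the only ones to hold its letters. The TCF/LEF letters CTTTGAT and CTTTGAA and the SOX letters CATTGTT and CTTTGTT were searched on both strands in the 250 bases before each RefSeq transcription start (assembly GRCm38.p6). The 4 words share the letters TTG, so that a TCF/LEF and a SOX match may overlap in part but cannot be the same bases. RefSeq windows were at hand for 8 of the 10 genes, 13 windows in all. Sp5 held CTTTGAT from 104 to 98 bases before its start, at chr2:70474819-70474825, and CTTTGTT on the opposite strand from 222 bases before it. Dkk1 held CTTTGAA from 117 bases before its start, at chr19:30549607-30549613, and CTTTGTT from 98 bases before it. Of all 32851 windows of this length, 3.21% held CTTTGAT, 4.46% CTTTGAA and 7.48% either one, and 5.03% held CTTTGTT, 3.29% CATTGTT and 8.12% either one. The whole Sp5 window, chr2:70474673-70474922 on the plus strand, and a 30-base stretch for Dkk1, chr19:30549586-30549615 on the minus strand, are printed 5′ to 3′ with these words in capitals. The Dkk1 stretch lies within the first exon of the GENCODE vM21 model, which reaches 169 bases into the RefSeq window.
Sp5: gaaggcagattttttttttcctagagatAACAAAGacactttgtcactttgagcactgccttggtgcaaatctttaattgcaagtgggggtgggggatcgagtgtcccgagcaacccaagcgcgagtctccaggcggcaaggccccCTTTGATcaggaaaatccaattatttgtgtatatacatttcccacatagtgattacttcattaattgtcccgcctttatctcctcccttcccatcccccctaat
Dkk1: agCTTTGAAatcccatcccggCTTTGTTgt
In the Sp5 window the first capitals are CTTTGTT read on the other strand. A match of letters is a description of these windows and not evidence of binding.

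The libraries held 16709201 to 17719366 counts, and 16504 genes passed the filter on low counts. Levels are given as CPM after TMM scaling, which corrects for library size and composition, and a gene was called changed at an adjusted p under 0.05 with an absolute log2 fold change (log2FC) over 0.6, by the quasi-likelihood test of edgeR, adjusted over all 16504 genes by the Benjamini-Hochberg method. The study's methods call the replicates biological duplicates, and whether the infections or days were separate is not given in the sources used here. Sox2 fell from 471 ± 83.4 to 302 ± 26.1 CPM in Sox2-KD (adjusted p = 0.0479). Cdk9 was at 119 ± 14.4 CPM in control and 63.1 ± 14.1 in Cdk9-KD (adjusted p = 0.0985). Hnrnpk counted 19436 and 19736 in control and 11890 and 19663 in the hnRNPK-KD-labelled libraries, so its message was not lower in the second of them, and a direction given for this group is that of its label. Message levels were read, not protein.

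The 10 genes spanned a wide range of expression. Per kilobase of exon, Ctnnb1 had the highest level, with a mean of 177 CPM over the 8 libraries, and it lay above 98.8% of the genes tested. Sp5 (37.4 CPM per kb), Tcf7 (30.7), Axin2 (25.8) and Tcf7l1 (13.9) followed, at percentiles 91.6, 89.6, 87.3 and 76.3. Neighbours in this order overlapped between libraries: Sp5 ranged from 19.5 to 63.4 CPM per kb, Tcf7 from 25.0 to 40.2, Axin2 from 16.3 to 35.0 and Tcf7l1 from 10.9 to 18.1, while the lowest Ctnnb1 library was at 153. Dkk3 (2.71 CPM per kb), Dkk1 (1.24), Lef1 (1.08) and Nkd1 (0.413) came far below, with overlapping ranges between each neighbouring pair. Of the 3 TCF/LEF messages, those of Tcf7 and Tcf7l1 lay above that of Lef1 in every library.
Lgr5, the receptor for R-spondins that marks stem cells of the intestine and other tissues, was close to undetected. It counted 0 and 1 in control, 6 and 1 in Sox2-KD, 0 and 0 in the hnRNPK-KD-labelled libraries, and 2 and 0 in Cdk9-KD. It did not pass the filter on low counts, and no fold is given for it, so the tests below cover 9 of the 10 genes.

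**Figure D1:**
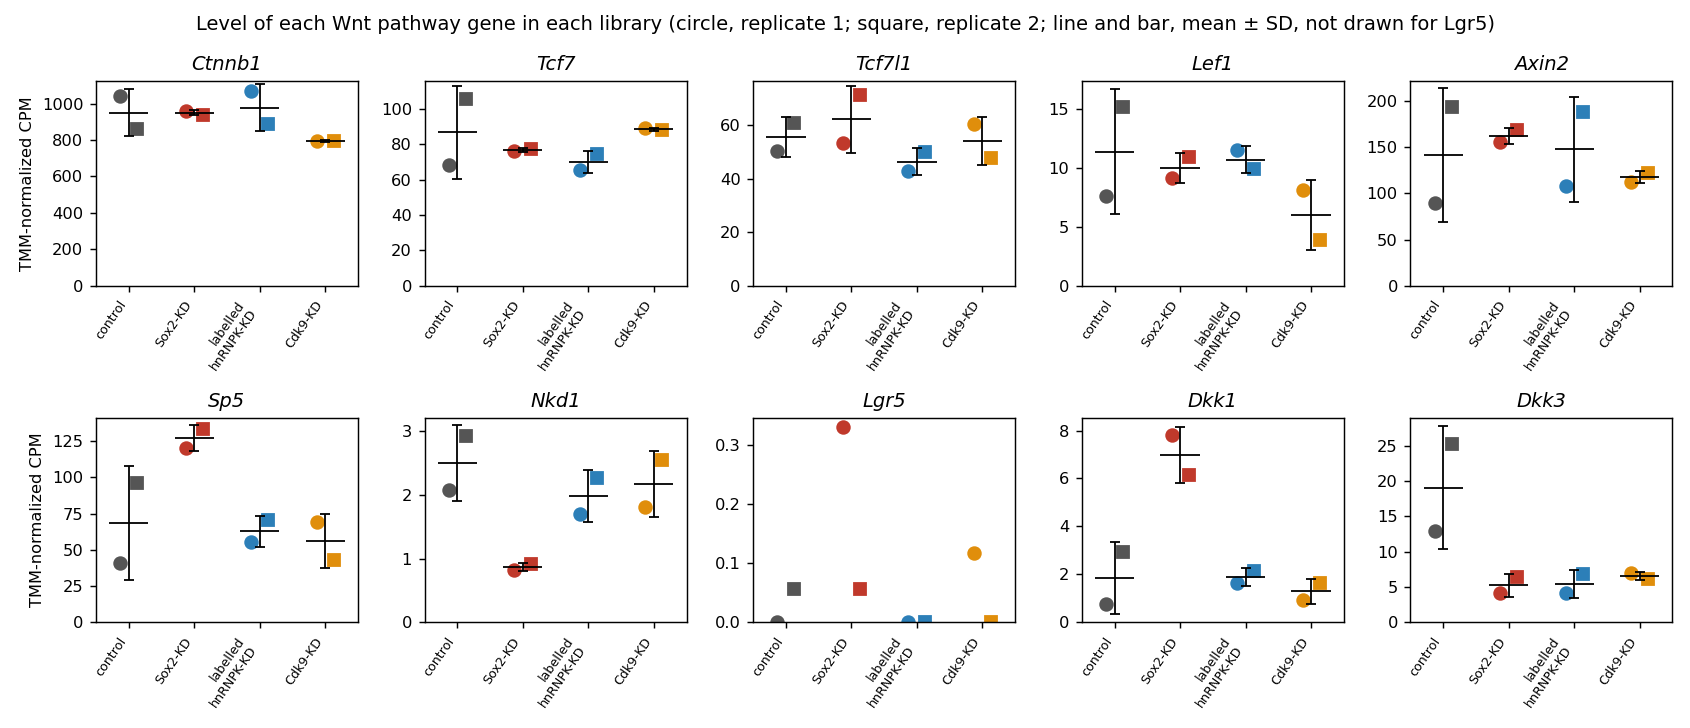
Level of each of the 10 genes in each library, in TMM-normalized CPM on a linear axis from 0 (circle, replicate 1; square, replicate 2; line and bar, mean ± SD of 2 libraries, left out for Lgr5). Dkk3 lies lower in all 6 knockdown libraries than in either control, Dkk1 and Sp5 lie higher in both Sox2-KD libraries than in either control, and the 2 control libraries lie far apart for Axin2, Sp5, Lef1 and Dkk1.

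The control libraries differed from each other in these genes more than in most. Control replicate 2 was higher than replicate 1 for 8 of the 9 genes tested, all but Ctnnb1, beside 49.1% of all tested genes. Replicate 2 was also higher for 7 of the 9 in Sox2-KD and 7 in the hnRNPK-KD-labelled libraries, but for 3 in Cdk9-KD. The shares of all tested genes in these groups were 51.1%, 48.1% and 49.7%. Of the 9 genes, 6 differed by more than 1.5-fold between the control libraries, whereas 19.9% of all tested genes did. Dkk1 differed 3.71-fold, Sp5 2.35-fold, Axin2 2.14-fold, Lef1 1.99-fold, Dkk3 1.96-fold and Tcf7 1.54-fold. A gap of that size was rare among tested genes: 1.5% had one as large as that of Dkk1, 5.02% as that of Sp5 and 6.42% as that of Axin2. In the other groups fewer of the 9 genes were over 1.5-fold apart, 1 in Sox2-KD, 2 in the hnRNPK-KD-labelled libraries and 3 in Cdk9-KD. A change of Axin2, Sp5, Lef1 or Dkk1 within the gap between the control libraries was not detectable here.

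**Figure D2:**
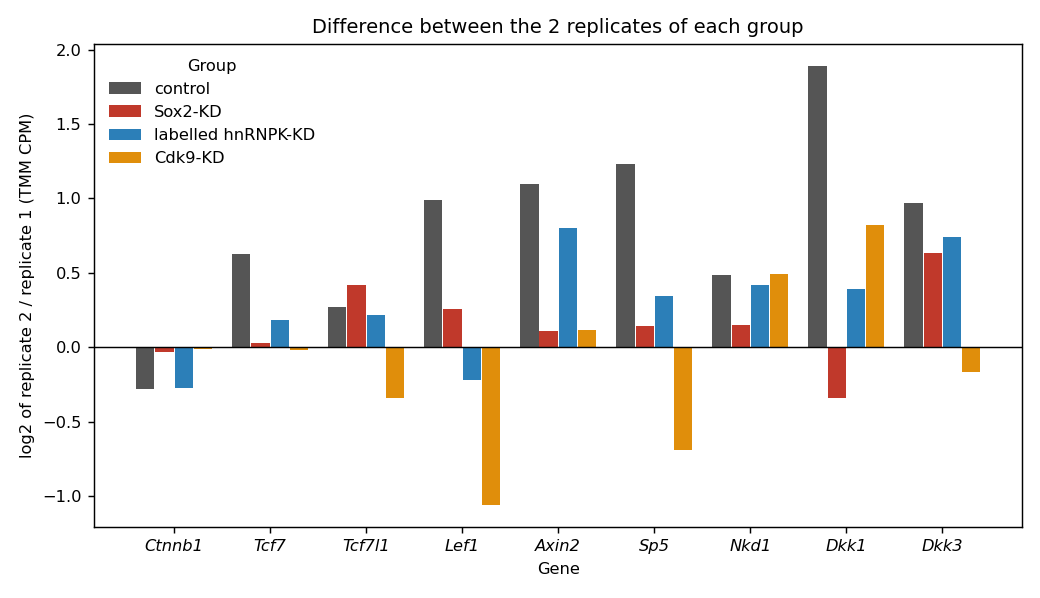
Difference between the 2 replicates of each group for the 9 tested genes, as log2 of replicate 2 over replicate 1 (bars start at 0). Control bars are positive for 8 of 9 genes and reach 1.89 for Dkk1, while Sox2-KD bars stay between -0.34 and 0.63.

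In Sox2-KD E14 ESCs, 1 of the 9 genes was called against control, and 4.32% of all tested genes were. Dkk3 (ENSMUSG00000030772.6) is a gene of 8 exons on the minus strand at chr7:112116017-112159057 (GRCm38). It measured 12.9 and 25.2 CPM in control and 4.12 and 6.39 CPM in Sox2-KD. Both Sox2-KD libraries were below both controls. The log2FC of Dkk3 was -1.86 (standard error 0.38, adjusted p = 0.0233). The call depended on single libraries: without control replicate 2 the adjusted p was 0.181, without Sox2-KD replicate 1 it was 0.120 and without Sox2-KD replicate 2 it was 0.0737, with the same direction each time (log2FC -1.30, -1.58 and -2.21). In these bulk libraries, fewer cells of a type and less RNA per cell cannot be told apart.

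Of the 9 genes, 4 had both Sox2-KD libraries on one side of both controls, while 53.3% of all tested genes did, so this share was not above the background. An equal number, 4 of the 9, had an unadjusted p under 0.05, against 19.3% of all tested genes. The inhibitor Dkk1 (ENSMUSG00000024868.8, minus strand at chr19:30545863-30549665) measured 0.788 and 2.92 CPM in control and 7.80 and 6.16 CPM in Sox2-KD, from 14, 51, 142 and 108 counts. Both Sox2-KD libraries stood above both controls, by a log2FC of 1.91 (standard error 0.52), and the test was missed (adjusted p = 0.0682). The size rested on the control libraries: the log2FC was 3.13 (adjusted p = 0.0395) without control replicate 2, the higher of the controls, and 1.24 (adjusted p = 0.294) without control replicate 1. DESeq2 gave an adjusted p of 0.0168, and 3 of 16 alternatives for Dkk1 gave one under 0.05. Dkk1 and Dkk3, 2 members of one family, thus lay on opposite sides of control in Sox2-KD ESCs.

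Sp5 (ENSMUSG00000075304.2, plus strand at chr2:70474923-70477729) measured 41.0 and 96.1 CPM in control and 121 and 133 CPM in Sox2-KD. The Sox2-KD libraries were close together and above both controls, which were far apart. The log2FC was 0.89 (standard error 0.34, adjusted p = 0.179), and it depended on the control library used: it was 1.62 (adjusted p = 0.0422) without control replicate 2 and 0.38 (adjusted p = 0.595) without control replicate 1. Of 16 alternatives for Sp5, 1 gave an adjusted p under 0.05. Nkd1 (ENSMUSG00000031661.12, plus strand at chr8:88521354-88594884), which binds Dishevelled and damps the pathway inside the cell, measured 2.08 and 2.92 CPM in control and 0.824 and 0.913 CPM in Sox2-KD, from 37, 51, 15 and 16 counts. It was lower in both Sox2-KD libraries, where its log2FC was -1.52 (standard error 0.41, adjusted p = 0.0671). The likelihood ratio test gave an adjusted p of 0.0175, and 2 of 16 alternatives for Nkd1 gave one under 0.05. When a library was left out, the log2FC of Nkd1 ran from -1.76 to -1.26.

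The other 5 genes overlapped between Sox2-KD and control. Axin2, the scaffold of the destruction complex that is the usual readout of Wnt activity, measured 89.9 and 193 CPM in control and 156 and 168 CPM in Sox2-KD. Both Sox2-KD values lay between the controls (log2FC 0.20, standard error 0.32, adjusted p = 0.790). Ctnnb1 had a log2FC of -0.002 with a standard error of 0.15. Tcf7 (log2FC -0.18, standard error 0.19), Tcf7l1 (0.16, 0.20) and Lef1 (-0.18, 0.38), the TCF/LEF proteins that β-catenin joins, had adjusted p-values of 0.670, 0.711 and 0.846. Over the 9 genes the median absolute log2FC was 0.20, beside 0.28 over all tested genes. Reads of 4 of these genes may include reads of a neighbour, since whether the counting used strand is not given in the sources used here: opposite-strand exons cover 14.6% of the exon bases of Ctnnb1 (Ulk4), 13.7% of Lef1 (Gm43352), 4.56% of Tcf7l1 (Gm15401) and 3.8% of Axin2 (Gm11670).

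**Figure D3:**
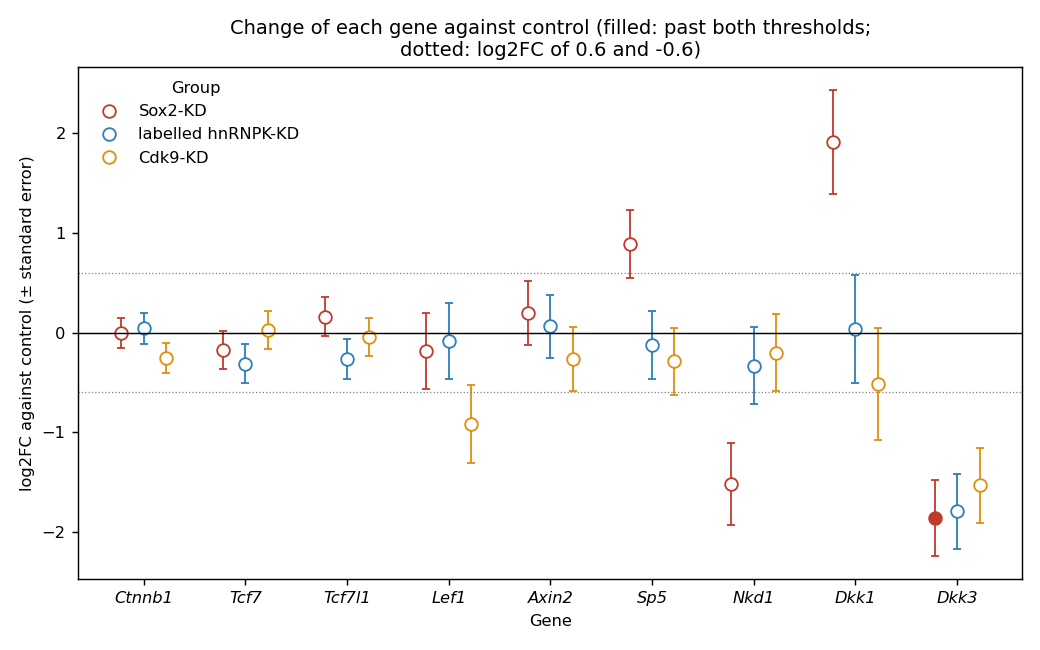
Log2FC against control of the 9 tested genes, with the standard error, for Sox2-KD, the hnRNPK-KD-labelled libraries and Cdk9-KD (filled, past both thresholds; dotted lines, log2FC of 0.6 and -0.6). Only Dkk3 in Sox2-KD is filled, at -1.86, and its other 2 values lie at -1.79 and -1.53, while Dkk1 and Sp5 have their highest values in Sox2-KD, at 1.91 and 0.89, without passing the test.

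In the hnRNPK-KD-labelled libraries, 0 of the 9 genes were called against control, as were 0% of all tested genes, although 1325 genes had an unadjusted p under 0.05. Of the 9 genes, 2 did not overlap with control, Dkk3 and Tcf7l1, both lower, beside 39.1% of all tested genes. Dkk3 measured 4.10 and 6.87 CPM, close to its Sox2-KD values. Its log2FC was -1.79 (standard error 0.38, adjusted p = 0.304), and DESeq2 called it (adjusted p = 0.00164). Tcf7l1, the repressor of the family, measured 50.4 and 60.8 CPM in control and 42.7 and 49.8 CPM in these libraries (log2FC -0.27, standard error 0.20, adjusted p = 0.808). Axin2 was again far apart between replicates, at 107 and 187 CPM. Dkk1, at 1.64 and 2.15 CPM, and Sp5, at 55.4 and 70.4 CPM, lay between the control libraries. Dkk3 was the only one of the 9 genes with an unadjusted p under 0.05.

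In Cdk9-KD ESCs, 0 of the 9 genes were called against control, while 0.139% of all tested genes, 23 genes, were. Of the 9 genes, 2 were lower without overlap, Dkk3 and Ctnnb1, beside 39.2% of all tested genes without overlap. Dkk3 measured 6.95 and 6.21 CPM (log2FC -1.53, standard error 0.37, adjusted p = 0.192), and DESeq2 called it (adjusted p = 0.00674). Ctnnb1 measured 1042 and 859 CPM in control and 797 and 793 CPM in Cdk9-KD, a log2FC of -0.26 (standard error 0.15, adjusted p = 0.593). Lef1 measured 7.60 and 15.1 CPM in control and 8.12 and 3.90 CPM in Cdk9-KD. The Lef1 values of the groups overlapped, and the log2FC of -0.92 (standard error 0.39) had an adjusted p of 0.452. Dkk3 and Lef1 were the genes with an unadjusted p under 0.05.

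Dkk3 was the only one of the 9 genes that lay below both controls in all 6 knockdown libraries, which held for 3.57% of all tested genes. None lay above both controls in all 6, which held for 5.71%. The 3 comparisons share the same 2 control libraries, whose Dkk3 values were 1.96-fold apart, so the lower values in the 3 knockdowns are not separate observations of control. Between the knockdowns, Dkk3 differed by a log2FC of -0.33 (Sox2-KD less Cdk9-KD, standard error 0.38, adjusted p = 0.688) and -0.06 (Sox2-KD less the hnRNPK-KD-labelled libraries, standard error 0.38, adjusted p = 0.950). The genes whose levels followed Dkk3 most closely over the 8 libraries, among 12522 genes compared, were Obox6 (Pearson r of log2 CPM 0.983), H2afy2 (0.980), which encodes a macroH2A histone, and Ank (0.961), a membrane transport protein of pyrophosphate. These correlations were chosen as the highest of many and are given as a description.

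The knockdowns were also compared with one another, which leaves out the control libraries from the difference. In Sox2-KD against Cdk9-KD, 1 of the 9 genes was called, Dkk1, beside 7.33% of all tested genes. Dkk1 measured 7.80 and 6.16 CPM in Sox2-KD and 0.935 and 1.66 CPM in Cdk9-KD. It was 5.37-fold higher in Sox2-KD (log2FC 2.43, standard error 0.54, adjusted p = 0.0231). The call was lost without any single one of these 4 libraries, with adjusted p-values of 0.0659 to 0.110 and log2FC of 2.09 to 2.88. Sp5 was at 121 and 133 CPM against 69.3 and 42.9 (log2FC 1.18, standard error 0.34, adjusted p = 0.0635), and Nkd1 at 0.824 and 0.913 CPM against 1.81 and 2.54 (log2FC -1.32, standard error 0.42, adjusted p = 0.0852).
In Sox2-KD against the hnRNPK-KD-labelled libraries, 0 of the 9 were called, beside 5.9% of all tested genes. Dkk1 had a log2FC of 1.88 (standard error 0.52, adjusted p = 0.0632), Sp5 of 1.01 (standard error 0.34, adjusted p = 0.112) and Nkd1 of -1.19 (standard error 0.42, adjusted p = 0.129), with 3 of the 9 genes at an unadjusted p under 0.05. With DESeq2, Dkk1 and Sp5 were called in both of these comparisons. In Cdk9-KD against the hnRNPK-KD-labelled libraries, 0 of the 9 genes and 0% of all tested genes were called, and no one of the 9 had an unadjusted p under 0.05, while 943 of all genes did. DESeq2 also called 0 of the 9 there.

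The rest of the pathway was read from a list of 103 genes in 9 classes, of which 78 passed the filter. In Sox2-KD ESCs 8 of the 78 changed, 6 higher and 2 lower, beside 4.32% of all tested genes called. Of the 8, Wnt7b could be tested only because it was high in Sox2-KD. The 78 had a median log2FC of 0.07 (0.02 over all tested genes) and a median absolute log2FC of 0.45 (0.28). Leaving out either control library or Sox2-KD replicate 2 left 2 genes called, and leaving out Sox2-KD replicate 1 left 5. None of the 78 was called in the hnRNPK-KD-labelled libraries or in Cdk9-KD, where 9 and 17 had an unadjusted p under 0.05, beside 8.03% and 10.4% of all tested genes. DESeq2 called 12 of them in Sox2-KD, 0 in the hnRNPK-KD-labelled libraries and 2 in Cdk9-KD, Sfrp2 and Wls, both higher.

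In Sox2-KD, 2 ligands and both genes of ligand secretion rose. The 2 called ligands were among 7 tested of 19 listed, beside 4.32% of all tested genes called. That share cannot be weighed against the 4.32%, since Wnt7b could be tested only because it was high in Sox2-KD. Wnt7b counted 0 and 2 in control and 68 and 90 in Sox2-KD, a ratio of 77.8 with an exact 95% interval of 21.2 to 648 for counting error (adjusted p = 0.00387). Wnt8a counted 3 and 5 in control and 70 and 80 in Sox2-KD, a ratio of 18.5 (9.14 to 43.6, adjusted p = 0.0102). Wnt7b passed the filter only through its Sox2-KD libraries. Wnt8a had enough counts in the other knockdown libraries to pass without those of Sox2-KD. Per kilobase, Wnt8a went from a level of 0.13 ± 0.0476 to 2.41 ± 0.291 CPM per kb, the highest of the ligands in Sox2-KD, and Wnt7b from 0.0117 ± 0.0165 to 0.906 ± 0.202 (SD, n = 2 each). Wnt5b, the ligand with the highest mean level over the 8 libraries, was at 0.784 ± 0.418 CPM per kb in control and 1.03 ± 0.181 in Sox2-KD. Wnt7b counted 1 and 0 in the hnRNPK-KD-labelled libraries and 1 and 0 in Cdk9-KD. Wnt8a counted 24 and 6 in the hnRNPK-KD-labelled libraries and 11 and 23 in Cdk9-KD. For Wnt8a, all 6 knockdown libraries were thus above both controls, which held for 5.71% of all tested genes.
Both genes of ligand secretion were called. Porcn, the enzyme that attaches the lipid to Wnt proteins, counted 188 and 177 in control and 539 and 799 in Sox2-KD (log2FC 1.86, standard error 0.34, adjusted p = 0.0153). Wls, the carrier that brings them to the cell surface, counted 117 and 124 in control and 632 and 314 in Sox2-KD (log2FC 1.94, standard error 0.31, adjusted p = 0.00879). Wls counted 166 and 128 in the hnRNPK-KD-labelled libraries and 285 and 267 in Cdk9-KD. All 6 knockdown libraries were thus above both controls for Wls, beside 5.71% of all tested genes.

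Among receptors and inhibitors, 1 gene rose and 2 fell in Sox2-KD, where 4.32% of all tested genes were called. Of 16 tested receptors 1 was called, Fzd4, a Frizzled receptor that counted 96 and 70 in control and 24 and 19 in Sox2-KD (log2FC -1.96, standard error 0.41, adjusted p = 0.0258). The receptor with the highest level per kb, Fzd10 (40.0 CPM per kb), had a log2FC of 0.23. Of 11 tested inhibitors at or outside the membrane, Rnf43 rose and Sfrp4 fell. Rnf43, a ubiquitin ligase that removes Frizzled receptors and is itself switched on by Wnt signalling, counted 18 and 37 in control and 88 and 110 in Sox2-KD (log2FC 1.82, standard error 0.41, adjusted p = 0.0346). Sfrp4, a secreted Frizzled-like protein that binds Wnts, counted 138 and 80 in control and 41 and 43 in Sox2-KD (log2FC -1.39, standard error 0.33, adjusted p = 0.0406). The inhibitor with the highest level, Sfrp1 (54.5 CPM per kb), had a log2FC of -0.64 (adjusted p = 0.0864).
The 4 R-spondins, the ligands of the Lgr receptors, did not pass the filter, and Rspo1, at 0.228 CPM per kb, had the highest mean level of them.

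Inside the cell, 0 of 16 genes of the destruction complex and its regulators were called by edgeR, with 3 at an unadjusted p under 0.05 and a median log2FC of -0.09. Of all tested genes, 4.32% were called in Sox2-KD and 19.3% had an unadjusted p under 0.05. The one with the highest level was Csnk1a1, casein kinase 1 alpha (49.8 CPM per kb, log2FC -0.17). Of 13 nuclear partners 1 was called, Tle1, a Groucho co-repressor of TCF/LEF proteins. It counted 370 and 353 in control and 575 and 608 in Sox2-KD (log2FC 0.69, standard error 0.17, adjusted p = 0.0431). The Tle1 call was kept in only 7 of 16 alternatives, with a log2FC of 0.62 to 0.76. All 6 knockdown libraries were above both controls for Tle1, beside 5.71% of all tested genes, and also for some pathway genes that were not called. Aes, a short Groucho-related protein, had the highest level of this class (60.0 CPM per kb, log2FC 0.29).
Of 8 other targets of β-catenin 0 were called by edgeR and 2 by DESeq2, Ccnd1 and Tnfrsf19, both lower, and 4 had an unadjusted p under 0.05. Of the 8, 5 were lower in both Sox2-KD libraries than in both controls and none was higher, beside 53.3% of all tested genes without overlap in either direction. The median log2FC of the 8 was -0.83. The 5, named after their values were seen, were Cdx2 (log2FC -2.15, adjusted p = 0.0521), T (-1.51, 0.136), Cd44 (-1.08, 0.311), Ccnd1 (-0.91, 0.112) and Tnfrsf19 (-0.75, 0.0581). Cd44 had at most 33 counts in a library. T counted 187 and 456 in control and 174 and 58 in Sox2-KD, and Cdx2 351 and 613 in control and 111 and 109 in Sox2-KD. Cdx1, the target with the highest level (52.7 CPM per kb), had a log2FC of -0.13. Of 5 genes that Tcf7l1 represses in ESCs, 0 were called by edgeR or DESeq2 and 2 had an unadjusted p under 0.05. Of the 5, 4 were lower in both Sox2-KD libraries than in both controls and none was higher. Again, 53.3% of all tested genes did not overlap in either direction. The median log2FC of the 5 was -0.43. Nanog, the highest of them (305 CPM per kb), had a log2FC of -0.43 (adjusted p = 0.161).

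**Figure D4:**
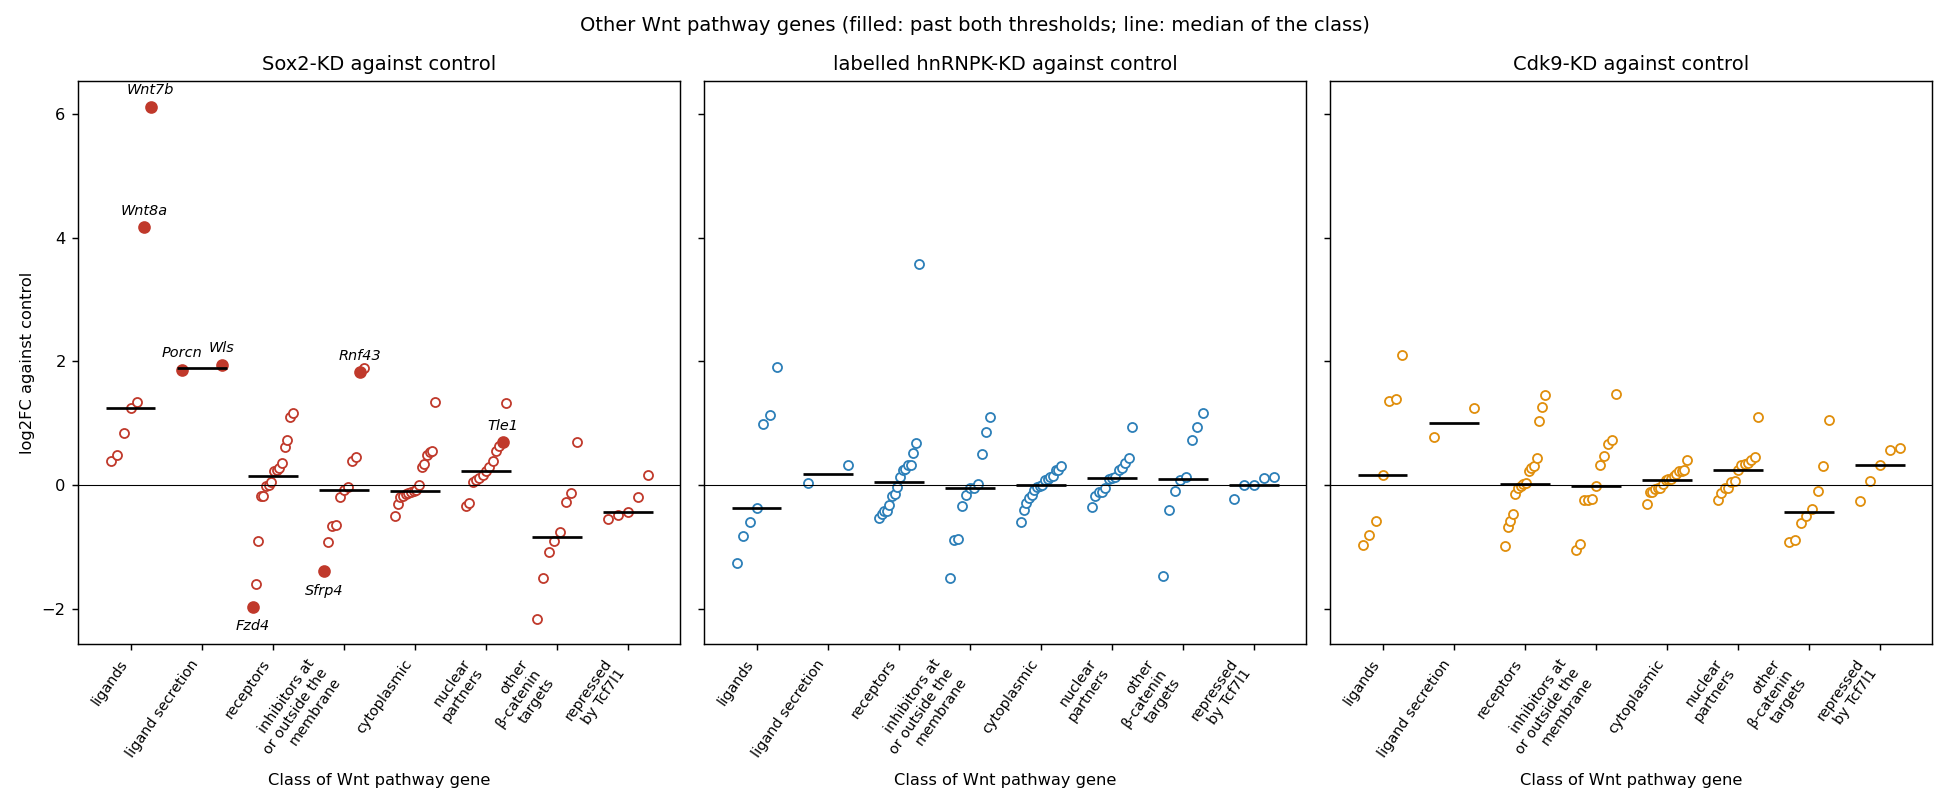
Log2FC against control of the 78 tested pathway genes by class, for each knockdown (filled and named, past both thresholds; black line, median of the class; the fitted values of Wnt7b and Wnt8a rest on few control counts). The 8 named genes are all in Sox2-KD, where the median of the ligand-secretion class is 1.90 and that of the other β-catenin targets is -0.83.

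Markers of other cell types also changed in Sox2-KD. The 10 ESC markers were counted in every library, and their summed level was 6662 and 5770 CPM in control and 5209 and 5841 CPM in Sox2-KD. The 10 trophectoderm markers summed to 103 and 117 CPM in control and to 210 and 346 CPM in Sox2-KD, beside 119 to 161 CPM in the other knockdowns, with Elf5 at 0 or 1 count in both groups and Plac1 at 0 in control. The list split: Krt8 (17.9 ± 0.707 to 139.5 ± 59.9 CPM) and Krt18 (3.06 ± 0.284 to 62.1 ± 29.2), a pair of epithelial keratins, together rose by more than the sum did, while Cdx2, which is also on the list of β-catenin targets, was 4.45-fold lower without passing the test. Of the 7 trophectoderm markers tested, 3 were called higher and 0 lower, beside 4.32% of all tested genes called in either direction. The 10 primitive endoderm markers summed to 247 and 223 CPM in control and 134 and 203 CPM in Sox2-KD, with Sox7 at 0 in control. This lower sum came from 1 abundant gene, Lama1, a laminin chain that fell from 230 ± 18.0 to 114 ± 35.3 CPM. Dab2 rose 57.6-fold and Gata6 12.5-fold from low levels. Of the 7 tested, 5 were higher and 1 lower in both Sox2-KD libraries than in both controls, beside 53.3% of all tested genes without overlap. The median log2FC of the 7 was 0.83. In Sox2-KD, Krt8, Krt18, Gata3, Dab2, Gata6, Eomes, Evx1, Lum and Utf1 rose, and Lama1, Gsc and Sox1 fell. Gata3, Gata6, Evx1 and Lum, and Sox17 among the primitive endoderm markers tested, passed the filter through their Sox2-KD libraries. They could therefore be tested only because they were high there. The summed markers of mesendoderm (41.1 and 64.3 CPM in control, 57.2 and 51.8 in Sox2-KD), neural cells (77.2 and 60.0, 47.0 and 60.8) and fibroblasts (18.3 and 15.5, 17.7 and 18.0) overlapped between these groups. Of 6 tested mesendoderm markers, however, 4 were higher and 2 lower without overlap, beside 53.3% of all tested genes. The part of other cell types in the values of Dkk1, Dkk3, Sp5, Nkd1 and the other pathway genes was not tested.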

How the data were processed

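Poly(A) RNA of 8 libraries was sequenced as paired reads. Per the labels and the study's methods, the authors trimmed the reads with Trimmomatic, aligned them with STAR (2.7.9a in the submitters' processing notes) to GRCm38 and counted them per gene with featureCounts 2.0.1 on a GENCODE annotation; the files hold these raw counts as deposited, with no normalization. Strand and multi-mapping settings are not given in the sources used here. All columns matched a sample by title.

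Gene symbols and exon lengths came from GENCODE vM21, which holds 55154 of the 55335 identifiers, and promoter windows from RefSeq (GRCm38.p6). Genes were filtered with filterByExpr (minimum count 10), scaled by TMM and fitted over all 8 libraries in edgeR 4.0.16 (R 4.3.3) with 4 group means and the quasi-likelihood test. DESeq2 1.42.0 and other settings were alternatives. The fit was also run on counts simulated from its own fitted means and spread, which cannot test the gaps between the control libraries. Leaving out a library leaves a group of 1, assumed to vary like the others. With 2 against 2 libraries an exact permutation test cannot go below p = 0.333, so tests rest on the spread shared over genes. Intervals cover counting error only.

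The 10 genes, the pathway list and the markers were chosen with earlier results of these data known. Named genes were the 10, the 3 knockdown targets, pathway genes called against control, the gene with the highest level per kb in each class, the 3 genes most correlated with each called member, and called markers; the 5 other targets named beside them were an exception. The main fit did not pair samples by replicate number. Replicate deviations correlated at -0.223 to 0.21 between groups, which cannot settle whether some groups shared a batch.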

Additional observations from a re-analysis of the deposited data

Results flagged for a closer look

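Dkk1 differed between 2 knockdowns measured against the same control: the difference itself, Sox2-KD less Cdk9-KD, was a log2FC of 2.43 (edgeR quasi-likelihood test, standard error 0.54, adjusted p = 0.0231). It was higher in 2 of 2 Sox2-KD libraries than in both Cdk9-KD libraries. The reason was not tested.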

How the results depend on the processing

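With 2 libraries a group and a biological coefficient of variation of 0.186, calls near the threshold moved with the test and with single libraries. Members called in Sox2-KD against control (1) numbered 2 with DESeq2, 3 with the likelihood ratio test and 2 with at least 10 counts in every library, and 0 to 2 when a library was left out; pathway genes called (8) numbered 14 with the likelihood ratio test and 2 to 10 when a library was left out. Leaving out either control library left 2 pathway genes, Sox2-KD replicate 2 left 2 and Sox2-KD replicate 1 left 5. In the hnRNPK-KD-labelled libraries against control, DESeq2 and the likelihood ratio test each called 1 member, Dkk3, and the latter 1 pathway gene; in Cdk9-KD both tests called 1 member, Dkk3, and 2 pathway genes, Sfrp2 and Wls. In Sox2-KD against Cdk9-KD (1 called), DESeq2 called 2, the likelihood ratio test 3 and the fit on the 4 libraries compared 2, with 0 to 2 when a library was left out; in Sox2-KD against the hnRNPK-KD-labelled libraries (0 called) these gave 2, 2 and 2, library totals gave 1, and leaving out a library 0 to 2. The cause was not tested.

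Dkk3 in Sox2-KD kept its direction in all 16 alternatives (log2FC -2.28 to -1.30). When a library was left out, the Sox2-KD value ran from 0.38 to 1.62 for Sp5 and 1.24 to 3.13 for Dkk1, with adjusted p-values up to 0.595 and 0.294. Directions turned in values that were not called. Tcf7 in the hnRNPK-KD-labelled libraries turned although its log2FC was -0.31 with a standard error of 0.19. In Sox2-KD, Ctnnb1 had a log2FC of 0.066 with library totals, 0.002 with at least 10 counts in every library and 0.005 with the replicate block. When a library was left out, Sox2-KD values ran from -0.14 to 0.13 for Ctnnb1, -0.27 to 0.84 for Axin2, -0.61 to 0.39 for Lef1, -0.48 to 0.16 for Tcf7 and -0.067 to 0.343 for Tcf7l1. For the hnRNPK-KD-labelled libraries they ran from -0.11 to 0.17 for Ctnnb1, -0.42 to 0.70 for Axin2, -0.63 to 0.61 for Sp5, -0.52 to 0.48 for Lef1, -0.613 to 0.023 for Tcf7 and -0.64 to 1.25 for Dkk1. For Cdk9-KD they ran from -0.75 to 0.36 for Axin2, -0.82 to 0.43 for Sp5, -0.29 to 0.34 for Tcf7, -0.26 to 0.12 for Tcf7l1, -1.21 to 0.68 for Dkk1 and -0.465 to 0.035 for Nkd1.

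In the fit with a replicate block, 1, 0 and 0 members and 9, 0 and 0 pathway genes were called in Sox2-KD, the hnRNPK-KD-labelled libraries and Cdk9-KD against control.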
